A study of Homo sapiens with 32 samples.

Results

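The genes described here are 40 antiviral interferon-stimulated genes, chosen by name outside the IFIT, IFI44, ISG15, GBP, PARP, APOBEC3 and TRIM families, measured in THP-1 cells, a human monocytic leukemia cell line. Of these, 39 reached a mean deposited count of at least 10 over the 32 libraries and were tested together with all 12406 genes at that minimum, out of 60107 genes in the tables. The member below it was LAMP3, a lysosomal membrane protein, with a deposited mean of 2.11 and between 1 and 29 reads in a group of 4 libraries. Messenger RNA was counted from its polyadenylated end with QuantSeq libraries, in which a transcript gives about 1 tag whatever its length.

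The lines differed in ATP-citrate lyase (ACLY), the enzyme that makes acetyl-coenzyme A from citrate. KO cells carried a knockout of ACLY, and WT, HA and SA cells were KO cells that had been transduced with a lentivirus, carrying the pCDH-EF vector and puromycin resistance, to re-express wild-type ACLY, the catalytically inactive H760A form or the S455A form that cannot be phosphorylated at serine 455. Each of the 4 lines was left untreated or received LPS for 3 h at 100 ng/ml according to the labels (the methods also name a lower dose), giving 8 groups of 4 libraries. There was 1 line per genotype, and whether the KO cells had been transduced as well is not stated, so that genotype cannot be told apart from other differences between the lines. The study describes its data in general as coming from independent experiments. The labels do not say whether the 4 libraries of a group were separate cultures, so the p-values measure the spread between these libraries, part of which may be technical.

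Interferons bind receptors at the cell surface and, through JAK kinases, activate transcription factors that switch on many genes through promoter elements named ISRE and GAS. The products hinder viruses at entry, at replication, at translation and at release, or kill the infected cell. Monocytes respond to LPS, a bacterial cell wall component, through TLR4, which leads to secretion of type I interferon and to a later wave of the same genes.

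Promoter windows that hold the ISRE core are shown for members from several role groups, because this element is what the interferon-responsive genes are known to share and the choice of the genes by name did not use it. RefSeq promoters on GRCh38.p14 (250 bases before to 50 bases after a start) were found for 33 of the 40 genes. Each line runs 5′ to 3′ on the strand of the gene, and capitals mark 1 match to the core, GAAA and a second GAAA with any pair of bases between them, in TNFSF10 as it reads when the match is on the opposite strand.
IFI6: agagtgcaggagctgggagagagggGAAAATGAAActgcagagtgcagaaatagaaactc
TNFSF10: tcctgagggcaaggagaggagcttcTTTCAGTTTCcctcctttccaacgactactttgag
IFITM3: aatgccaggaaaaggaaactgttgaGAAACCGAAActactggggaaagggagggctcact
SAMD9: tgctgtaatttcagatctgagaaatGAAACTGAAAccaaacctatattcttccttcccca
IFI27: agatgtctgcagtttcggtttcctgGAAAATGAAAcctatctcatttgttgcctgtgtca
EPSTI1: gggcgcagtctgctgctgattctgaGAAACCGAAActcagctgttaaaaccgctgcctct

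The windows lie at chr1:27672273-27672332 on the minus strand for IFI6, at chr3:172523583-172523642 on the minus strand for TNFSF10, at chr11:320861-320920 on the minus strand for IFITM3, at chr7:93118081-93118140 on the minus strand for SAMD9, at chr14:94110616-94110675 on the plus strand for IFI27 and at chr13:42992257-42992316 on the minus strand for EPSTI1. In GENCODE release 44 the TNFSF10 and SAMD9 windows overlap no gene, those of IFITM3 and IFI27 lie in an intron of a longer transcript of the gene (for IFITM3 also in ENSG00000251661), that of EPSTI1 touches one of its exons, and that of IFI6 lies in an intron of the neighbouring gene ENSG00000225886. The match began at position -115 for IFI6, -187 for TNFSF10, -35 for IFITM3, -136 for SAMD9, -95 for IFI27 and -50 for EPSTI1, counted from the RefSeq start. IFI6 held 3 matches in its promoter and IFITM3 and IFI27 held 2 each, and the windows printed for these genes also contain 1 further match in lower case.

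Read on both strands, the ISRE core was present in 19 of the 33 matched members (57.6%), against 4.38% of all 27305 genes with a promoter and 4.02% of the 9170 tested genes with one. The GAS core TTCNNNGAA was present in 11 of the 33 (33.3%), against 9.38% of all genes and 8.43% of tested genes. The 2 cores can overlap, as they did in IFI27 and EPSTI1, where the GAS match shares bases with the ISRE match. RSAD2, EIF2AK2 and DDX60 also held an ISRE match, and SP110 held a GAS match alone. SAMD9L, CMPK2, XAF1 and 11 other matched members held no ISRE match in this window, which says only that these letters are not in it.

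The libraries held 6504099 to 14750815 reads on genes (median 10247620), and the mitochondrial share was 3.32 to 8.36%. All values below are recovered reads divided by size factors computed jointly over the 32 libraries (normalized counts), because the deposited tables were scaled separately for each line. Among the 8 monocytic markers (CD14, CD33, LYZ, CD68, ITGAM, SPI1, CSF1R and MPO) none was at 0, while CD3E, KRT19 and COL1A2 were at 0 in every library. The summed monocytic marker level was 6178 to 7889 in WT, 5690.0 to 8199.8 in SA, 13883 to 21189.8 in HA and 15521 to 29330.4 in KO, and with LPS it was 5317 to 7929, 7133 to 8802, 14003 to 21036 and 17989.8 to 35574 in the same order, so it was higher in HA and KO along with the genes described here. Most of this sum was lysozyme (LYZ), while the mean counts of CD33 and ITGAM were lower, at 376 and 114 in untreated WT, 298 and 54.7 in HA and 276 and 85.6 in KO. CSF1R was higher as well, at 349 to 527.5 in untreated WT, 744 to 1168 in HA and 729 to 1712 in KO. With LPS its ranges overlapped, at 304 to 637 in WT, 527 to 984 in HA and 517 to 1052 in KO. Mean CD14 was higher in untreated KO (261) than in WT (83.2), and with LPS it was lower in HA (22.3) than in WT (55.9). The part of these markers in the results was not tested. In bulk samples, a change in the share of cells that express a gene cannot be told apart from a change in RNA per cell.

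ACLY messenger RNA did not separate KO from WT. Its normalized counts were 117, 101.3, 90.7 and 97.1 in WT and 97.5, 107, 82.4 and 67.2 in KO, and those ranges overlapped (log2 fold change -0.21, adjusted p = 0.884). A tag from the 3′ end can lie outside the altered part of a gene, so these counts do not check the labels. Replicate 1 of LPS-treated SA stood apart, with 13460 genes with reads against 14953 or more in every other library, and the counts and medians that rest on it are given with and without it.

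The mean level of the members lay in 1 order across the lines, with KO highest and WT lowest. In untreated cells the mean log2 level of the 39 members was 8.59 ± 0.09 in WT, 8.78 ± 0.05 in SA, 9.32 ± 0.20 in HA and 10.04 ± 0.13 in KO (SD, n = 4). With LPS it was 9.04 ± 0.09 in WT, 9.40 ± 0.10 in SA, 9.73 ± 0.16 in HA and 10.44 ± 0.26 in KO (SD, n = 4). The 4 lines did not overlap within either condition, and untreated KO libraries (9.92 to 10.18) all lay above LPS-treated WT libraries (8.92 to 9.11). The SA mean with LPS holds 9.25 in replicate 1 and 9.41 to 9.46 in the others, all above WT, and its difference from WT was 0.405 without replicate 1. Untreated HA libraries (9.18 to 9.61) did so as well, whereas untreated SA libraries (8.70 to 8.81) lay below them. The deposited scale was set within each line and has no common scale between lines. Taken as it stands, it shifts SA by 0.26 and HA by 0.15 against WT and KO by -0.10. On it the SA difference from WT was 0.45 in place of 0.19 without LPS and 0.62 in place of 0.36 with LPS.

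**Figure D1:**
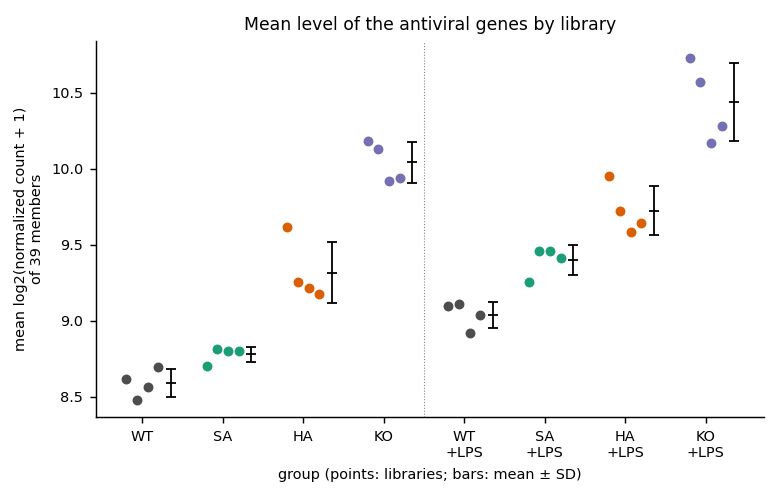
Mean log2(normalized count + 1) of the 39 members (y axis) in each library of the 8 groups (x axis), with points for libraries and black bars for the group mean ± SD. Within each condition the lines step up from WT (8.59 untreated, 9.04 with LPS) through SA and HA to KO (10.04 and 10.44).

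Gene by gene, 25 of 39 members had group means in the order KO, HA, SA, WT in untreated cells, as 4.75% of all tested genes did, and 22 did with LPS, as 5.66% of all tested genes did. KO had the highest mean of the 4 lines for 36 members without LPS and for 38 with it, against 20.2% and 26.9% of all tested genes. Without replicate 1 of LPS-treated SA, 24 members followed the order with LPS (6.52% of all genes) and KO was highest for 37 (23.3%). The plot of all members by library shows the KO columns darkest in each condition, with IFITM1 and TDRD7 varying between the libraries of most groups.

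**Figure D2:**
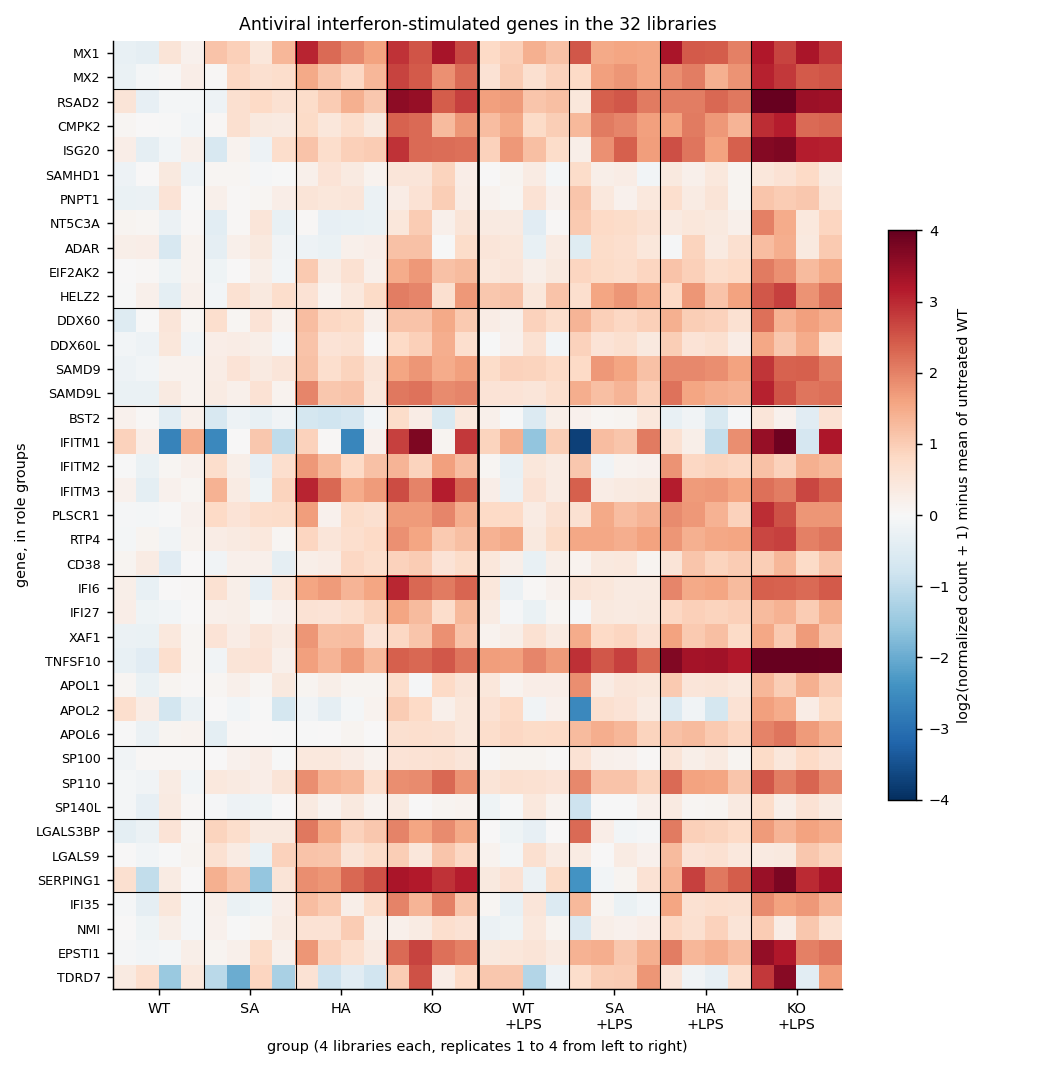
Difference of log2(normalized count + 1) from the mean of untreated WT for 39 members (rows, in role groups) in 32 libraries (columns, 4 per group), red higher and blue lower, with the colour scale ending at 4 in each direction and higher values (RSAD2 and TNFSF10 in LPS-treated KO) drawn in the end colour. KO has the highest group mean for 36 members without LPS (left) and for 38 with it (right).

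KO was compared with WT to ask what loss of ACLY did to these genes in resting and in LPS-treated cells. In untreated cells 27 of 39 members rose in KO and none fell (limma, Benjamini-Hochberg adjusted p under 0.01), while 1.8% of all tested genes rose and 2.9% were called in either direction. With LPS 28 rose and none fell, while 2.14% of all tested genes rose and 3.47% were called in either direction. Both counts hold SERPING1, which reached the minimum mean of 10 only through its level in HA and KO. With a minimum mean of 50, which it missed, 26 members were called without LPS and 27 with it. All 39 members had a positive log2 fold change in both conditions, with a median of 1.41 (range 0.16 to 3.12) without LPS and 1.34 (range 0.23 to 3.00) with it, beside medians of -0.03 and -0.01 over all genes tested. The upper end of both ranges is SERPING1. In 29 members every untreated KO library lay above every WT library (5.9% of all genes), as did 30 with LPS (6.73% of all genes).

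The same 27 members passed the test in both conditions, and NT5C3A, a pyrimidine nucleotidase, passed it with LPS only (1.11, adjusted p = 4.27e-03, against 0.54, adjusted p = 0.304). That its change differed between conditions was not shown, as the difference of its LPS responses missed the threshold. The 11 members called in neither condition were SAMHD1, PNPT1, ADAR, BST2, IFITM1, APOL1, APOL2, SP140L, LGALS9, NMI and TDRD7. Libraries of KO and WT with the same number deviated together, and with the number as a block and only the libraries of the 2 lines in the fit, 33 members rose without LPS and 36 with it. That fit added SAMHD1, PNPT1, ADAR, IFITM1, APOL1 and LGALS9 without LPS, and SAMHD1, PNPT1, ADAR, IFITM1, APOL1, APOL2, NMI and TDRD7 with LPS. With the block and all 8 groups in the fit, 27 rose without LPS, none of them added, and 30 with LPS, where APOL1 and NMI were added. The share of all genes called in the fits with a block is not given. Their counts therefore do not show how far the members stood out from other genes.

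HA was compared with WT to ask whether an ACLY protein without catalytic activity gave the same levels as the active one. In untreated cells 11 members rose in HA and none fell, while 1.42% of all tested genes rose and 2.52% were called in either direction. With LPS 9 rose and none fell, while 1.16% rose and 2.02% were called in either direction. The 9 called in both conditions were MX1, MX2, SAMD9, SAMD9L, IFITM3, IFI6, IFI27, TNFSF10 and SP110, and IFITM2 and XAF1 joined them without LPS. All 11 had also risen in KO, with which HA shares the WT libraries. The median log2 fold change of the members was 0.71 (range -0.57 to 2.21) without LPS and 0.68 (range -0.56 to 1.80) with it, beside medians of -0.02 and -0.03 over all genes tested. Every HA library lay above every WT library for 23 members without LPS (9% of all genes) and for 22 with it (7.09%). Without LPS the count of called members was 5 when replicate 1 of HA was left out, 7 without replicate 1 of WT and 6 without replicate 2 of WT. With LPS it was 4 without replicate 1 of HA or of WT, and 5 without replicate 2 of HA or replicate 3 of WT. On the deposited scale, which was set within each line, 16 and 13 members were called in HA, and 23 and 26 in KO.

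SA was compared with WT to ask what loss of the phosphorylation site did. No member passed the test in either condition, and 0% of all genes did, in limma and also in limma-voom on the recovered reads. The study itself, using DESeq2 at the same limit, reported EPSTI1 as higher in SA than in WT after LPS. That test was not rerun here. At an unadjusted p under 0.05 there were 4 members and 445 genes without LPS, and 17 members and 646 genes with LPS. The median log2 fold change of the members was 0.23 (range -0.88 to 0.97) without LPS and 0.44 (range -0.85 to 0.92) with it, beside -0.01 and -0.02 over all genes. Every untreated SA library lay above every untreated WT library for 2 members (2.37% of all genes), and with LPS this held for 8 members (1.27% of all genes), MX1, SAMD9L, TNFSF10, SP110 and EPSTI1 among them, and the count of called members stayed 0 without replicate 1 of LPS-treated SA. Without that library 16 members and 218 genes had an unadjusted p under 0.05 with LPS, the median of the members was 0.38 beside 0.01 over all genes, and 15 members did not overlap WT (3.24% of all genes).

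**Figure D3:**
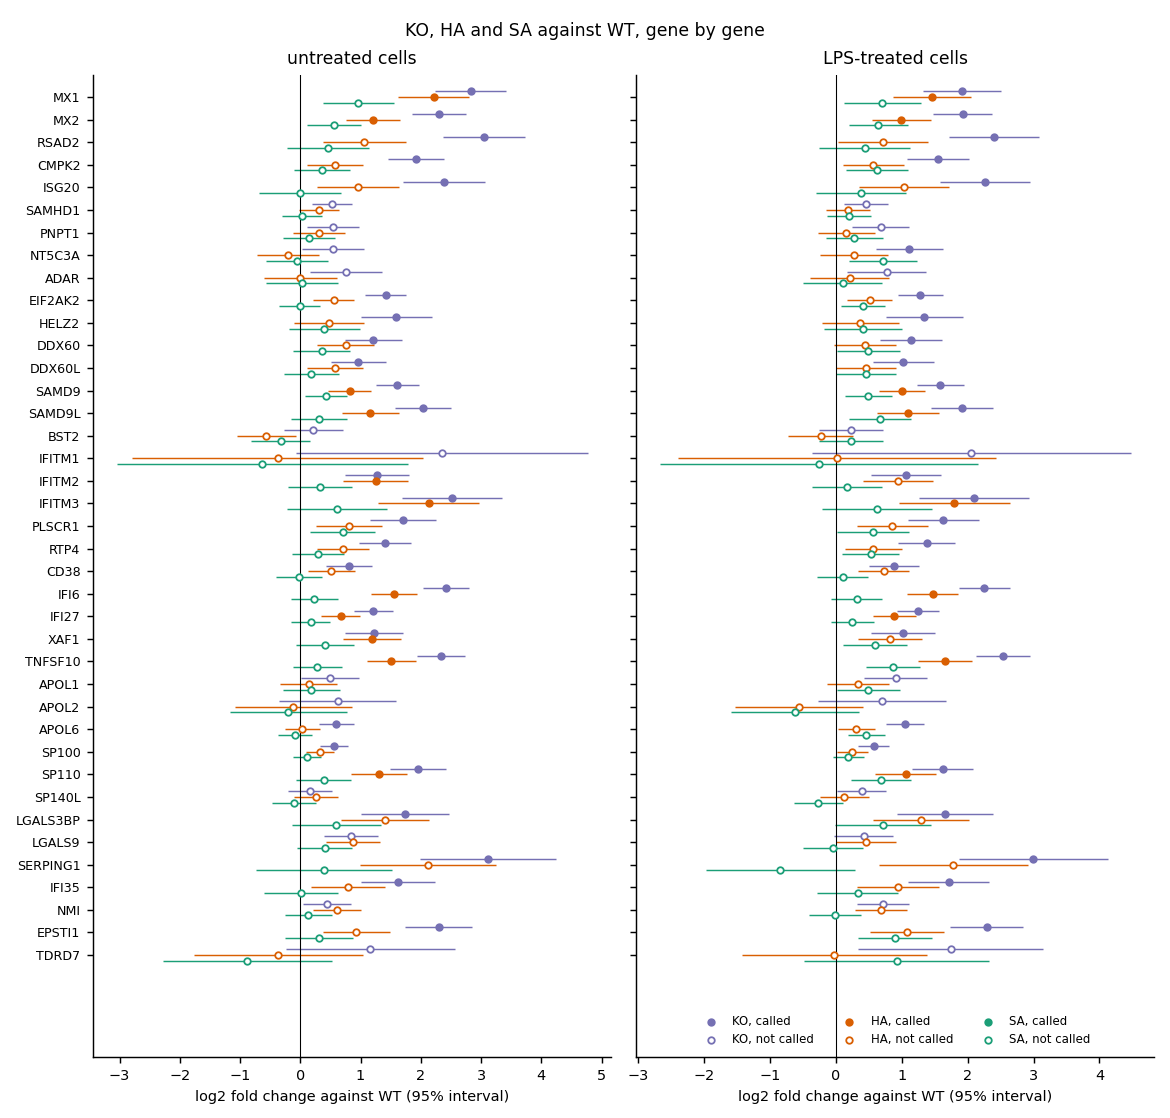
Log2 fold change against WT (x axis, points, with 95% intervals) for the 39 members (rows) in KO, HA and SA cells, untreated on the left and LPS-treated on the right, filled where the adjusted p was under 0.01. Filled points number 27 and 28 for KO, 11 and 9 for HA and 0 and 0 for SA.

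KO was higher than HA for 36 members without LPS and 38 with it (49.4% and 51.2% of all genes), but few differences passed the test. RSAD2, CMPK2 and EIF2AK2 were called without LPS, while 0.202% of all tested genes were called higher in KO, and no member was called with LPS, when 0.00806% of all genes were. At an unadjusted p under 0.05 there were 23 members and 1288 genes without LPS, and 26 members and 1308 genes with LPS. With LPS limma-voom called 2 members, for which the share of all genes in that fit is not given. Every KO library lay above every HA library for 15 members without LPS (2.73% of all genes) and for 13 with it (2.66%). The count of called members without LPS was 0 when replicate 2 of HA or replicate 1 or 2 of KO was left out, 1 without replicate 4 of HA, 5 without replicate 3 of KO and 7 without replicate 1 of HA. With LPS it was 1 when replicate 4 of KO was left out. XAF1 and IFITM2 showed small differences between KO and HA in untreated cells, of 0.04 and 0.03 (95% intervals -0.45 to 0.52 and -0.50 to 0.56).

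Against SA, KO had a positive log2 fold change for all 39 members in both conditions (49.4% and 53.6% of all genes). With LPS the smallest was 0.003, for BST2, and its sign rests on replicate 1 of LPS-treated SA. It was called higher for 20 members without LPS (1.61% of all genes) and for 16 with it (1.77%). The count with LPS was 19 when replicate 1 of LPS-treated SA was left out and 10 when replicate 1 of LPS-treated KO was. Every KO library lay above every SA library for 30 members without LPS (5.26% of all genes) and for 22 with it (4.76%), or 32 without replicate 1 of LPS-treated SA (9.49%). HA was called higher than SA for IFI6 and TNFSF10 without LPS (0.725% of all genes, 1.5% called in either direction) and for IFI6 and SERPING1 with it (1.06%, 2.02% in either direction). The call of SERPING1 is set aside here and in KO against SA with LPS, as it reached the minimum mean only through its level in HA and KO. Every HA library lay above every SA library for 16 members without LPS (6.11% of all genes) and for 7 with it (5.51%), or 13 without replicate 1 of LPS-treated SA (13.9%). With LPS every HA library lay below every SA library for 3 members, NT5C3A, BST2 and TDRD7 (5.21% of all genes), and this held for the same 3 without that library (16.9%). Without LPS 5 members were called when replicate 4 of HA was left out. With LPS 4 were called without replicate 1 of SA, and SERPING1 was not among them (HA minus SA 2.62 with all libraries and 1.98 without it), while 1 was called without replicate 2, 3 or 4 of HA.

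The dynamin-like GTPases MX1 and MX2, which trap incoming viral nucleocapsids, both rose in KO and in HA in each condition. In untreated cells the normalized counts of MX1 (ENSG00000157601, chr21:41420020-41470071, plus strand) were 833, 803, 1477 and 1160.4 in WT, 2279.6, 2013, 1402 and 2593 in SA, 8508, 4948, 3957 and 3181 in HA and 7637, 5874, 10137 and 6484 in KO. After LPS the values were 1796, 1984, 2769 and 2319 in WT, 5812, 2982, 3108 and 3017 in SA, 9889.7, 5628, 5569.7 and 4190.0 in HA and 9528, 6751, 9940.2 and 7281 in KO. KO and HA libraries lay above all WT libraries of the same condition, HA and KO overlapped each other, and replicate 1 was the highest of HA and of LPS-treated SA. The log2 fold change in KO was 2.83 without LPS (SE 0.29, adjusted p = 5.89e-08) and 1.92 with it (SE 0.29, adjusted p = 3.40e-05), and in HA it was 2.21 (SE 0.29, adjusted p = 9.63e-06) and 1.46 (SE 0.29, adjusted p = 1.93e-03). MX2, its neighbour on chromosome 21 that restricts retroviruses in the nucleus, rose by 2.30 and 1.93 in KO and by 1.20 and 0.99 in HA.

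Among 9 nucleotide and RNA enzymes, 5 rose in KO without LPS and 6 with it, and none was called in HA. The leading gene was RSAD2 (ENSG00000134321, chr2:6865557-6898239, plus strand), or viperin, which makes a chain-terminating nucleotide. Its normalized counts in untreated cells were 74.4, 41.0, 49.3 and 49.0 in WT, 45.0, 82.1, 92.1 and 79.2 in SA, 87.4, 107, 142 and 110.2 in HA and 627, 588, 285 and 354 in KO. LPS-treated cells had 163, 173, 114 and 122 in WT, 71.8, 277, 296 and 224 in SA, 219, 219, 258 and 231 in HA and 999.9, 970.5, 565 and 561 in KO. KO libraries lay above those of all other lines, and every HA library lay above every WT library of the same condition. RSAD2 rose by 3.05 and 2.40 on the log2 scale in KO (SE 0.34 and 0.34, adjusted p = 2.72e-07 and 1.30e-05), and HA differed from WT by 1.06 and 0.71, which missed the threshold (SE 0.34 and 0.34, adjusted p = 0.0532 and 0.276). Without LPS it was higher in KO than in HA by 1.99 (SE 0.34, adjusted p = 2.27e-03).

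CMPK2, a mitochondrial nucleotide kinase that starts beside RSAD2 on the opposite strand, had counts of 309, 299.7, 292 and 274 in untreated WT, 497, 400.0, 478 and 388 in HA and 1514, 1418, 704 and 1004 in KO. It was 1.34 higher in KO than in HA on the log2 scale (SE 0.23, adjusted p = 2.28e-03). The annotated starts of the 2 genes overlap, and the strand setting of the counting is not given in the sources used here, so reads from the overlap cannot be assigned with certainty. EIF2AK2, the kinase PKR that halts translation when it binds viral RNA, was at 1141, 1173, 1006 and 1252 in untreated WT, 2355, 1443, 1753 and 1308 in HA and 3192, 3783, 2574 and 2768 in KO, and was 0.87 higher in KO than in HA (SE 0.17, adjusted p = 7.52e-03).

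ISG20, an exoribonuclease, rose by 2.39 and 2.26 in KO, and HELZ2, a helicase, by 1.59 and 1.34. SAMHD1, which depletes deoxynucleotides, PNPT1, a mitochondrial RNA phosphorylase, and ADAR, which edits adenosines in RNA helices, differed by 0.53, 0.54 and 0.76 without LPS and were called with the replicate block in the 2 lines alone, but not with the block in all groups.

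All 4 DDX60 and SAMD9 proteins rose in KO, and the SAMD9 pair rose in HA as well. SAMD9L (ENSG00000177409, chr7:93130056-93148385, minus strand), which restricts poxviruses and is encoded beside its relative SAMD9, had untreated counts of 352, 354, 545 and 465 in WT, 531, 482, 633 and 461 in SA, 1632, 901, 938 and 581 in HA and 1837, 1908, 1561 and 1645 in KO. Under LPS these counts became 614, 618, 593 and 678 in WT, 1153, 979.8, 1084 and 811 in SA, 1923, 1273, 1154 and 1106 in HA and 3536, 2435, 1866 and 1932 in KO. KO lay above WT and SA in both conditions, and HA overlapped KO through its replicate 1. The log2 fold changes were 2.04 and 1.92 in KO (SE 0.23 and 0.23, adjusted p = 4.04e-07 and 1.19e-06) and 1.16 and 1.09 in HA (SE 0.23 and 0.23, adjusted p = 1.83e-03 and 4.01e-03). SAMD9 rose by 1.61 and 1.58 in KO, DDX60, a helicase linked to RNA sensing, by 1.22 and 1.14, and its relative DDX60L by 0.96 and 1.03. SAMD9 with SAMD9L, and DDX60 with DDX60L, are similar in sequence, and how reads shared by such pairs were counted is not stated.

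Of the 8 membrane and vesicle proteins 7 were tested, and 5 rose in KO in both conditions. IFITM3 (ENSG00000142089, chr11:319676-329475, minus strand), which blocks the fusion of viruses with endosomes, had untreated counts of 5654, 3881, 5649 and 5314 in WT, 13151, 6381, 4545 and 9355 in SA, 41594, 24887, 14219.7 and 16467 in HA and 30869, 20267, 44688 and 25356 in KO. In the presence of LPS they were 6144, 4277, 7519 and 6404 in WT, 26526, 6229.5, 6567 and 6688 in SA, 44493, 16424, 16956 and 15016 in HA and 23279, 21039.5, 32460.2 and 26228 in KO. HA and KO overlapped and both lay above WT, and replicate 1 was far above the other libraries of LPS-treated HA and of LPS-treated SA. The log2 fold changes were 2.52 and 2.09 in KO (SE 0.41 and 0.41, adjusted p = 1.23e-04 and 9.69e-04) and 2.13 and 1.80 in HA (SE 0.41 and 0.41, adjusted p = 1.33e-03 and 7.59e-03).

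IFITM1 and IFITM2 lie beside IFITM3 on chromosome 11 and are close to it in sequence, so that reads may have been split or dropped between them and their values are uncertain. IFITM2 rose by 1.28 and 1.06 in KO and by 1.25 in untreated HA. IFITM1 counts were 24.3, 15.1, 1.12 and 36.8 in untreated WT and 88.5, 179, 13.5 and 94.8 in KO, and replicate 3 was the lowest of both. Its log2 fold change was 2.36 in KO, with adjusted p = 0.372, or adjusted p = 6.53e-05 with the replicate block in the 2 lines alone. PLSCR1, a lipid scramblase, rose by 1.71 and 1.63 in KO, RTP4, a Golgi chaperone, by 1.41 and 1.38, and CD38, which consumes NAD, by 0.81 and 0.88. BST2, or tetherin, which holds budding virions at the cell surface, was called in none of the 19 comparisons, at 0.21 in untreated KO and -0.57 in untreated HA.

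Of the 7 mitochondrial and cell death proteins, 5 rose in KO in both conditions, 4 rose in untreated HA and 3 in LPS-treated HA. TNFSF10 (ENSG00000121858, chr3:172505508-172523475, minus strand), the death ligand TRAIL, had untreated counts of 106, 95.4, 207 and 136 in WT, 118, 187, 189 and 151 in SA, 411, 337, 426 and 324 in HA and 685, 647, 739 and 581 in KO. In LPS-treated libraries they were 419, 408, 502 and 423 in WT, 983, 734, 868 and 646 in SA, 1706, 1302, 1335 and 1215 in HA and 3361, 2433, 2481 and 2016 in KO. Within each condition every KO library lay above every HA library and every HA library above WT, and with LPS all 4 lines were separate. The log2 fold changes were 2.33 and 2.53 in KO (SE 0.20 and 0.20, adjusted p = 2.50e-09 and 6.29e-10), 1.51 and 1.66 in HA (SE 0.20 and 0.20, adjusted p = 1.15e-05 and 3.06e-06), and 0.87 in LPS-treated SA, which missed the threshold (SE 0.20, adjusted p = 0.63) and was 0.77 without replicate 1 of SA.

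IFI6, a mitochondrial and endoplasmic reticulum protein that protects cells from flaviviruses, was at 6695, 4699, 5798 and 5974 in untreated WT, 8690.0, 6813, 4607 and 7631 in SA, 17118, 18816, 14750.4 and 17019.7 in HA and 46213, 28027, 24077 and 28589 in KO. The last 2 lines were apart from each other and from WT and SA. It rose by 2.42 and 2.25 in KO and was higher in HA than in SA by 1.32 and 1.16 (SE 0.19 and 0.19, adjusted p = 4.54e-05 and 2.47e-04). IFI27, which destabilizes mitochondria, rose by 1.21 and 1.25 in KO and by 0.67 and 0.89 in HA, and XAF1, which counters inhibitors of apoptosis, rose by 1.23 and 1.02 in KO. Of the apolipoprotein L genes, APOL6 rose by 0.60 and 1.05 in KO, while the related neighbours APOL1 and APOL2 were at 0.49 and 0.62 without LPS and did not pass the test.

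Of 3 nuclear body proteins, SP110 and SP100 rose in KO and SP110 alone rose in HA. SP110 (ENSG00000135899, chr2:230165186-230225729, minus strand), a relative of the PML body protein SP100, had untreated counts of 696, 667, 936 and 693 in WT, 985, 948, 894 and 1054 in SA, 2719, 1935, 1804 and 1183 in HA and 2690.1, 2732, 3619 and 2564 in KO. After LPS the counts were 1065, 1147, 1138 and 1089 in WT, 2803, 1642, 1618 and 1363 in SA, 3585, 2267, 2191 and 1598 in HA and 4146, 3091, 3753 and 2800.3 in KO. HA and KO lay above WT throughout and overlapped each other through replicate 1 of HA. The log2 fold changes were 1.95 and 1.62 in KO (SE 0.23 and 0.23, adjusted p = 5.49e-07 and 1.18e-05) and 1.30 and 1.06 in HA (SE 0.23 and 0.23, adjusted p = 4.38e-04 and 4.18e-03). SP100, which silences viral genomes in nuclear bodies, rose by 0.56 and 0.58 in KO, and SP140L was at 0.16 and 0.39.

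Of the galectins and secreted proteins, LGALS3BP rose in KO, the KO calls of SERPING1 are set aside, and none was called in HA. SERPING1 (ENSG00000149131, chr11:57597387-57619171, plus strand), the plasma inhibitor of the first complement component, was a low-count gene, with 17 reads in untreated WT and 161 in untreated KO. Its normalized counts were 7.16, 1.67, 5.60 and 4.38 in untreated WT, 13.1, 10.7, 0.822 and 6.60 in SA, 18.3, 16.8, 24.8 and 30.0 in HA and 50.01, 46.6, 37.8 and 46.0 in KO. The LPS-treated values were 5.99, 6.94, 3.52 and 7.92 in WT, 0, 3.85, 4.64 and 6.84 in SA, 12.8, 33.9, 21.8 and 27.4 in HA and 56.9, 71.4, 40.8 and 50.9 in KO. HA libraries lay between WT and KO without overlap in both conditions. The log2 fold changes of SERPING1 were 3.12 and 3.00 in KO and 2.12 and 1.78 in HA (SE 0.55 for each). No test of it is given here, as it reached the minimum mean only through its level in HA and KO. LGALS3BP, a secreted partner of galectins, rose by 1.74 and 1.66 in KO, and galectin LGALS9 was at 0.84 and 0.42 and did not pass the test.

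Of 4 cytoplasmic proteins, EPSTI1 and IFI35 rose in KO and none was called in HA. EPSTI1 (ENSG00000133106, chr13:42886388-42992271, minus strand) had untreated counts of 189, 182, 186 and 234 in WT, 211, 225, 328 and 227 in SA, 667, 376, 311 and 253 in HA and 939, 1279, 916 and 798 in KO. In treated cells they were 260.4, 272, 284 and 251 in WT, 518, 536, 413 and 534 in SA, 807, 498, 543 and 463 in HA and 2270.2, 1802, 801 and 882 in KO. In LPS-treated KO, replicates 1 and 2 were well above replicates 3 and 4, and the 3 other lines were each above WT. The log2 fold changes in KO were 2.29 and 2.29 (SE 0.27 and 0.27, adjusted p = 9.09e-07 and 1.08e-06). IFI35 rose by 1.62 and 1.71, while NMI, its binding partner, was at 0.44 and 0.71 and did not pass the test. TDRD7, a Tudor domain protein, ranged from 157 to 745 in untreated KO and from 44.8 to 204 in untreated WT, and its log2 fold change with LPS, 1.74, did not pass the test (adjusted p = 0.152), against adjusted p = 3.54e-04 with the replicate block in the 2 lines alone.

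**Figure D4:**
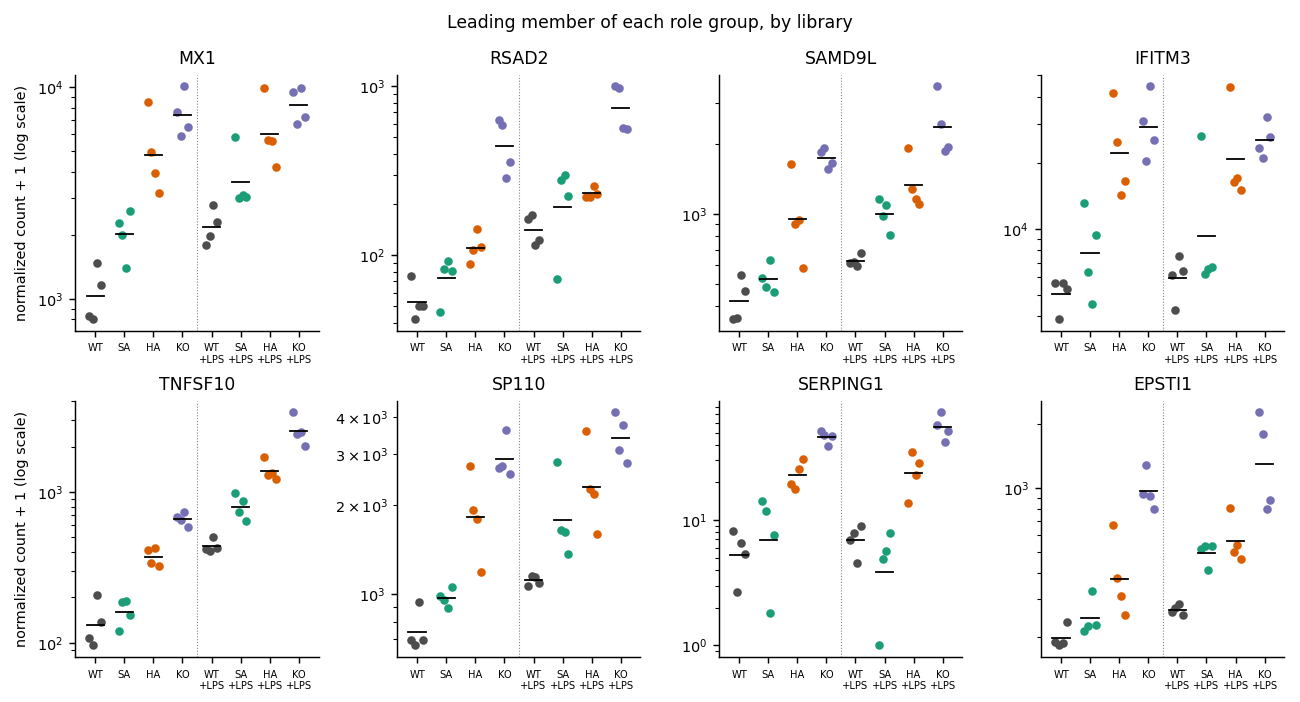
Normalized count + 1 (y axis, log scale) of the leading member of each role group (the one with the largest mean change in KO) in the 4 libraries of each of the 8 groups (x axis), with points for libraries and black lines for the mean on the log scale. RSAD2 in untreated KO ranges from 285 to 627 and in untreated HA from 87.4 to 142, while MX1 and IFITM3 overlap between HA and KO.

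LPS was compared with no treatment in each line to ask how far these genes answered within 3 h. In WT and KO 2 members rose, TNFSF10 and APOL6, while 0.25% of all tested genes rose in WT and 0.508% in KO. In HA 4 rose, with CMPK2 and SAMD9 added (0.387% of all genes, 0.403% called in either direction), and in SA 6 rose, with EIF2AK2 and RTP4 added as well (0.468%), or 8 without replicate 1 of LPS-treated SA. No member fell. The WT count was 1 without replicate 1 or 2 of untreated WT and without replicate 2 or 4 of LPS-treated WT. Every treated library lay above every untreated one for 16 members in WT (1.77% of all genes), 6 in KO (1.95%), 10 in HA (1.99%) and 15 in SA (2.11%), or 25 in SA without replicate 1 of LPS-treated SA (8.32%). The median response of the members was 0.34 in WT, 0.31 in KO, 0.34 in HA and 0.52 in SA (0.59 without that library), beside -0.01, 0.02, 0.00 and -0.02 over all genes. Treated and untreated libraries of the same number deviated together in WT and in KO, and with the number as a block and only that line in the fit 14 members rose in WT and 6 in KO, against 4 and 3 with the block in all 8 groups. In the fits of 1 line these were TNFSF10, APOL6, CMPK2, EIF2AK2, HELZ2, ISG20, MX1, MX2, RSAD2, RTP4, SAMD9, SAMD9L, SP110 and XAF1 in WT, and in KO they were TNFSF10, APOL6, CMPK2, ISG20, RSAD2 and RTP4. The share of all genes called in these fits with a block is not given either, so the counts cannot be read against it.

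TNFSF10 rose the most with LPS, by 1.74 in WT, 2.33 in SA (2.23 without replicate 1 of LPS-treated SA), 1.89 in HA and 1.94 in KO on the log2 scale. APOL6 rose by 0.77 in WT, 1.32 in SA, 1.05 in HA and 1.22 in KO, from counts of 492, 426, 536 and 556 in untreated WT to 822, 887, 843 and 867 in LPS-treated WT. The response of IFITM2, IFI6, IFI27, SP100, LGALS3BP and IFI35 was below 0.25 in size in every line with all libraries included, and all 6 of them were called higher in KO than in WT. For LGALS3BP in SA this rests on replicate 1 of LPS-treated SA (636, against 157, 122 and 126 in the others). Without that library every treated SA library lay below every untreated one for LGALS3BP alone among the members (6.04% of all genes).

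**Figure D5:**
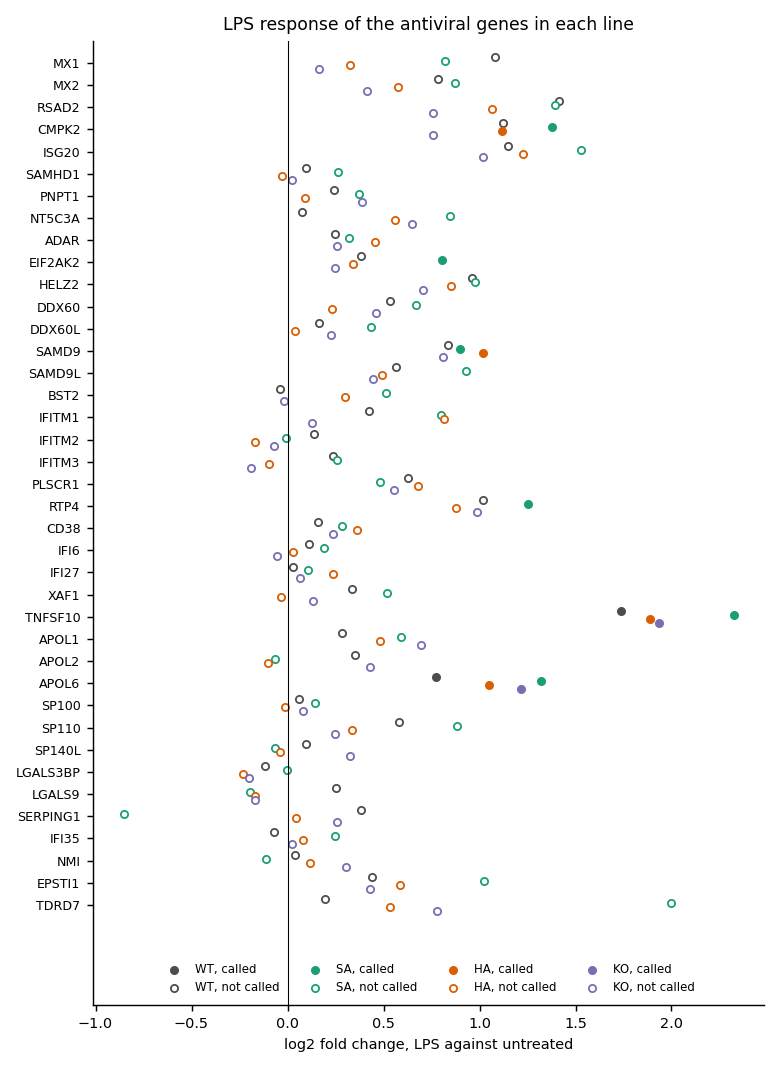
Log2 fold change of LPS against untreated cells (x axis) for the 39 members (rows) in WT, SA, HA and KO, filled where the adjusted p was under 0.01. TNFSF10 and APOL6 are filled in all 4 lines, and 6 members stay within 0.25 of 0 in every line with all libraries included.

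Whether LPS moved the members by a different amount in a changed line than in WT was tested directly. No member passed in KO, HA or SA (limma and limma-voom), while 0.00806% of all genes passed in KO and 0% in HA and in SA. At an unadjusted p under 0.05 there were 2 members and 175 genes in KO, 0 and 142 in HA, and 3 and 457 in SA. The median difference of the members was -0.07 in KO, -0.08 in HA and 0.13 in SA. Without replicate 1 of LPS-treated SA there were 2 members and 496 genes in SA, the median of the members was 0.18, and none was called. MX1 had the most negative difference in KO, -0.91 (95% interval -1.75 to -0.08, adjusted p = 1.00).

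The levels of untreated cells of one line can be set beside those of LPS-treated WT. Every untreated KO library lay above every LPS-treated WT library for 23 members (5.46% of all genes), among them MX1, RSAD2, ISG20, IFI6 and TNFSF10. The same held in untreated HA for 9 members (8.19% of all genes), which were MX1, IFITM2, IFITM3, IFI6, IFI27, SP100, SP110, LGALS3BP and SERPING1. In untreated SA it held for LGALS3BP alone (1.52% of all genes).

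The other genes of the interferon pathway were taken from a list of 44 ligands, receptors, kinases, transcription factors, inhibitors and sensors, of which 33 reached the minimum. In KO 9 rose without LPS and 8 with it, beside 1.8% and 2.14% of all tested genes, and both counts hold IFNL1, whose call is set aside. In HA 3 and 4 rose, beside 1.42% and 1.16% of all genes. In SA none rose, as 0% of all genes did, and none fell in any of these. Of the 10 ligands only IFNL1, interferon lambda, reached the minimum, through its level in KO, so no test of it is given. It had 66 reads in the 4 untreated KO libraries and 22 in HA against 0 in untreated WT, so it was at least 24.3-fold higher in KO, with 3 reads over the WT group as the floor. With LPS it had 295 reads in KO and 12 in WT. IFNB1, interferon beta, was below the minimum, with 46, 70, 0 and 5 reads in the LPS-treated KO libraries and 2 in LPS-treated WT.

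None of the 5 receptors tested was called in KO, HA or SA against WT. Of the kinases JAK2 rose, by 0.85 and 1.12 in KO. Of the transcription factors IRF1, an early response factor, rose by 0.84 and 1.75 in KO. Among 9 sensors and relays tested, the RNA helicases DDX58 (RIG-I) and IFIH1 (MDA5) rose by 2.08 and 2.05 in untreated KO and by 1.88 and 2.00 with LPS. Of the 5 inhibitors USP18, which blocks the type I receptor, was called in untreated KO, and STAT2 and IRF7 were called there as well.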

How the data were processed

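RNA from 4 THP-1 lines, untreated or LPS-treated, was sequenced as QuantSeq 3′ libraries. Per the methods of the study, the reads went through Bbduk for trimming, STAR for alignment to GRCh38 and HTSeq-count for counting, and the submitters' processing notes name bcl2fastq and DESeq2. The versions and the strand setting of the counting are not given in the sources used here. The deposited values were DESeq2-normalized counts, scaled by the authors separately within each line, in 8 tables whose rows included 92 spike-in sequences with 1 read, left out here. Dividing each column by its step (the value of 1 read) gave whole reads for 100.000% of values (tolerance 0.05), and these were rescaled with 1 set of median-of-ratios factors for the 32 libraries together.

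Genes with a mean of at least 10 (12406) entered 1 limma fit (version 3.58.1, R 4.3.3) of log2(normalized count + 1), with 1 mean per group, a trended prior and 19 contrasts. Fold changes are on that scale, which understates those of low genes. Calls were made at a Benjamini-Hochberg adjusted p under 0.01 over all tested genes, and the script was tested on simulated data. The number of reads per library, 6504099 to 14750815, sets the precision of low counts, and PCR copies cannot be told apart. No 2 libraries of a group agreed within sampling noise (chi-square per gene of at least 4.74).

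Replicate numbers come from the labels. Same-numbered libraries correlated in their deviations from the group means by over 0.1 in all 4 pairs for KO and WT without LPS (0.33 to 0.68) and with it (0.18 to 0.72), and for LPS against untreated in WT (0.26 to 0.68) and KO (0.12 to 0.68), so blocked values are given there and nowhere else in the results.

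Members and gene lists were chosen with earlier results of these data known. Values per library are given for the member of each of 8 role groups with the largest mean change in KO, other members as examples in the order of that change, and some (CMPK2, EIF2AK2, IFI6 among them) were chosen after their values were seen. Alternatives were other scales, pseudocounts, filters, sets of libraries, replicate blocks and limma-voom. Limma-voom was chosen after seeing the data, as were the overlap counts, orders and medians without replicate 1 of LPS-treated SA, where 3 libraries separate from 4 more easily. The planned edgeR test and the second DESeq2 test were not run, and limma-voom on the recovered reads took their place. One gene of the pathway list is not reported here by name.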

Additional observations from a re-analysis of the deposited data

Results flagged for a closer look

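In 10 of the 72 sets of 4 libraries examined (the 8 leading members and the mean level, in 8 groups), the highest or lowest library lay further from the other 3 than Dixon's 95% limit allows, and chance gives this in about 1 of 20 sets. MX1 was at 5812 and IFITM3 at 26526 in replicate 1 of LPS-treated SA, and IFITM3 was at 44493 in replicate 1 of LPS-treated HA, each far above the other libraries of its group. Replicate 3 was high for TNFSF10 in LPS-treated WT (502), for SP110 in untreated WT (936) and for SP110 in untreated KO (3619). EPSTI1 was set apart in replicate 4 of untreated WT (234), in replicate 3 of untreated SA (328) and in replicate 3 of LPS-treated SA (413). The mean level of the members was 8.70 in replicate 1 of untreated SA, below the 8.80 to 8.81 of the other 3.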

How the results depend on the processing

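With LPS and without, the KO count stayed between 19 and 33 (untreated) and between 23 and 36 (LPS) over all settings that kept every library, and the SA count stayed 0 throughout. For each count that moved by over 1.5 times, the cause was not tested. With only the compared groups in the fit, HA against WT with LPS gave 5, KO against HA untreated 0, KO against SA with LPS 1, HA against SA with LPS 0, and LPS against untreated 0 (WT), 1 (KO), 2 (HA) and 1 (SA). On the deposited scale KO against HA untreated gave 1 and KO against SA with LPS 10, and the mean level differed from WT by 0.84 in LPS-treated HA, 0.45 in untreated SA and 0.62 in LPS-treated SA. With the replicate block in the compared lines, KO against HA gave 5 untreated and 2 with LPS, KO against SA with LPS 4, HA against SA untreated 7, and LPS against untreated 14 in WT, 6 in KO and 0 in SA. With the block in all groups, KO against HA gave 6 untreated and 1 with LPS, HA against SA 5 untreated and 4 with LPS, and LPS against untreated 4 in WT. The block results for HA and SA lines rest on numbers that were not shown to pair the libraries, and the block changed no other call count by over 1.5 times. Limma-voom gave 2 for KO against HA with LPS and 4 for LPS in KO. Without a filter, and with a mean of at least 50, HA against SA with LPS gave 1, and with a mean of at least 50, and with a pseudocount of 5, LPS in KO gave 4.

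Leaving out 1 library at a time, the counts ranged from 22 to 26 (KO against WT, untreated), 21 to 27 (KO, LPS), 5 to 10 (HA, untreated), 4 to 8 (HA, LPS), 0 to 7 (KO against HA, untreated), 0 to 1 (KO against HA, LPS), 17 to 19 (KO against SA, untreated), 10 to 19 (KO against SA, LPS), 2 to 5 (HA against SA, untreated), 1 to 4 (HA against SA, LPS), and, for LPS, 1 to 2 (WT), 2 to 3 (KO), 3 to 4 (HA) and 4 to 8 (SA). Among the members' changes in KO and in HA against WT, and the called ones elsewhere, the sign turned for uncalled members in HA against WT (uncalled changes in the other comparisons, SA against WT among them, were not recomputed one by one). Untreated, these were APOL2 (-0.11; 0.032 on the deposited scale, -0.36 to 0.11 with a library left out), ADAR (-0.21 to 0.091), IFITM1 (-1.26 to 0.38) and APOL6 (-0.041 to 0.086). With LPS they were IFITM1 (0.02; -0.018 with a pseudocount of 5, -0.05 by limma-voom, -0.65 to 0.48 with a library left out) and TDRD7 (-0.03; 0.13 on the deposited scale, -0.48 to 0.27 with a library left out). Of these member results under other settings, 3445 stayed on their side of the threshold, 322 lost and 38 gained a call, and 18 changed sign. The edgeR and DESeq2 alternatives were not run. Low-count members (SERPING1, IFITM1) have the widest intervals, and LAMP3 was too low to test.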
